A study of Mus musculus with 2 samples.

Results

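Cldn10/Fmod cells are a subset of the fibroblast-like mesenchymal cells of the mouse dental pulp, recognised here by a set of 6 genes that includes Cldn10 and Fmod. The 2 libraries together held 385 of them among 4012 kept barcodes, 210 in the control library and 175 in the library from Vegfr2 knockout mice. A barcode was kept with at least 500 genes, at least 1000 unique molecular identifiers (UMIs, each standing for 1 captured RNA molecule) and at most 10% mitochondrial UMIs. It was called mesenchymal with a UMI of at least 3 of 7 genes (Lum, Dcn, Pdgfra, Prrx1, Twist1, Sfrp2 and Postn) and none of Ptprc, Cdh5, Sox10 or Notch3, which mark leukocytes, endothelium, glia and mural cells. UMIs were then summed over Cldn10, Pamr1, Irx5, Scara3, Ildr2 and Fmod. A member needed a sum of at least 2 that was larger than the sum of 6 genes led by Angpt4 and Col9a1 and that of 6 genes led by Pcp4 and Smoc2. Mesenchymal cells won by those other sums are called Col9a1/Angpt4 cells and Smoc2/Pcp4 cells. The members were therefore chosen on the expression values described below. Their levels of the 18 genes of the 3 sums and of the 7 mesenchyme genes are a description.

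The study took pulp from C57BL/6 mice at postnatal day 12, dissociated it with collagenase, dispase and DNase, and sorted cells that excluded propidium iodide, a dye that enters dead cells. Single-cell 3′ libraries were made with the 10x Chromium v3.1 kit, 1 per genotype: control, and a knockout of Vegfr2 in the endothelium. The design asks what pulp cells look like when the vessel lining lacks this receptor for vascular endothelial growth factor. The fibroblasts are not the cells named as the knockout target. The driver of the deletion, the genotype of the control mice beyond that word and the number of animals per library are not given in the sources used here. Each genotype had 1 library, so no difference between genotypes has a replicate check, no test was made and no p-value is given. Each interval is an exact 95% interval for counting error alone.

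Dental pulp is a loose connective tissue enclosed by dentin, and its fibroblasts secrete and maintain a matrix of collagens, proteoglycans and hyaluronan around vessels and nerves. They lie near odontoblasts, the cells that deposit dentin, and they signal to vessels and nerves through secreted factors. Fibroblasts that sense low oxygen stabilise hypoxia-inducible factors, which raise the transcription of glycolytic enzymes and of vascular endothelial growth factor A.

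The control matrix held 35918862 UMIs in 3487 barcodes and the knockout matrix 17277162 UMIs in 2563 barcodes, of which 2329 and 1683 barcodes were kept. The matrix headers name Cell Ranger 5.0.0 for the control and 6.0.1 for the knockout library, so software version and genotype cannot be told apart. The members carried 2199257 UMIs in the control and 1419998 in the knockout library, with medians of 10132 and 7765 UMIs per cell and of 6.34% and 7.43% mitochondrial UMIs. The libraries shared 3 barcodes, and 0 of these were members. Scrublet called 20 control and 4 knockout doublets, 0 of them among the members. Both libraries held cells of both sexes: among the members, 167 control and 129 knockout cells had Xist UMIs only, and 28 and 30 had Y-linked UMIs only. Kdr, which encodes VEGFR2, stood at 1058 CPM (UMIs of a gene per 1000000 UMIs summed over the cells named) in control endothelial cells and at 671 CPM in knockout endothelial cells. The 3′ end counted by these libraries can lie outside a deleted exon, so this level checks nothing about the deletion. In the members Kdr was at 25.01 and 12.7 CPM.

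All 6 genes of the rule were found in both libraries, and the cells that met the rule carried several of them together. Cldn10 (chromosome 14, 118787908 to 118875489, plus strand of GRCm38) encodes a claudin of ion-selective tight junctions. It was at 456 CPM in control and 880.3 CPM in knockout members, and was seen in 187 of 210 and 169 of 175 cells. Fmod (chromosome 1, 134037254 to 134048277, plus strand) encodes fibromodulin, a small proteoglycan that binds collagen fibrils. It was at 979 and 823 CPM. It was at 514 and 841 CPM in Col9a1/Angpt4 cells, where the knockout value was above that of the members, and at 48.8 and 90.8 CPM in Smoc2/Pcp4 cells. Irx5, an Iroquois homeobox transcription factor on chromosome 8 (92357625 to 92376286), was at 517 and 391 CPM. Scara3, a scavenger receptor on chromosome 14 (65919394 to 65953935), was at 558 and 380.3 CPM. Pamr1 on chromosome 2 (102550012 to 102643041), a secreted protein with a peptidase-like domain, was at 163 and 132 CPM, and Ildr2 on chromosome 1 (166254139 to 166316823), an immunoglobulin-like receptor, at 191 and 146 CPM. At least 5 of the 6 genes were seen in 77.1% of control and 65.7% of knockout members, and Cldn10 and Fmod together in 87.1% and 93.7%.

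The levels of these genes varied among the members. Cldn10 had a median of 425.5 CPM per cell in the control library, with quartiles of 161 and 709.5 CPM, and a median of 747 CPM in the knockout library, with quartiles of 373 and 1228 CPM. Pamr1 was at 0 in 70 control and 70 knockout cells, and Ildr2 in 72 and 78. Few members lay near the limits of the rule. The sum of the 6 genes had a median of 28 in control and 22 in knockout members. It was exactly 2 in 3 and 1 members, and led the next sum by at most 2 UMIs in 9 and 10 members. Just outside, 1 control and 2 knockout cells had a sum of 1 that was the largest, and 2 and 4 cells were tied. The boundary with the Col9a1/Angpt4 cells was one of degree. Angpt4, which encodes an angiopoietin, was at 307 and 318 CPM in the members, and 14 of the 385 members had no UMI of either other gene set.

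Markers of other cell types were summed in the members. The 6 endothelial markers summed to 28.7 CPM in control and 33.1 CPM in knockout members, against 5588 and 6456 CPM in endothelial cells. The 7 mural markers summed to 226 and 283 CPM, led by Abcc9 (85.9 and 110 CPM), against 26029 and 27984 CPM in mural cells. The 6 glial markers summed to 122 and 173 CPM, against 19707 and 30315 CPM in glia. The 5 leukocyte markers summed to 41.8 and 95.8 CPM, against 7619 and 7560 CPM in leukocytes. This last sum was higher in the knockout also in every other kind of non-leukocyte cell examined, for example at 29.5 and 70.0 CPM in glia, and its part in the genotype differences was not tested. The 6 dental epithelium markers summed to 144 and 99.3 CPM, led by Ambn, an enamel matrix gene at 138 and 82.4 CPM, with 1 and 3 of them at 0. They summed to 231 and 76.7 CPM in Col9a1/Angpt4 cells and to 330.1 and 182 CPM in Smoc2/Pcp4 cells. The odontoblast gene Dspp was nearly absent, with 18 UMIs in control and 1 UMI in knockout members. Other odontoblast genes were not low. Of 3 measured against Col9a1/Angpt4 cells, 1 (Phex) was at least 1.5-fold higher in both libraries (6.35% of all genes) and 0 lower. Of 4 measured against Smoc2/Pcp4 cells, 2 (Phex and Alpl) were higher (14.3% of all genes) and 1 (Smpd3) lower (7.69%). Of 4 haemoglobin genes, 3 were at 0 in each library.

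The 619 mesenchymal cells were also clustered without the 18 genes of the sums and the genes that define mesenchyme. Of 6 clusters, 3 consisted of Cldn10/Fmod cells by more than 90%, and these 3 held 337 of the 385 members. The members therefore lay together on genes that the rule did not use, though other genes of the same cells are not independent of it. Clusters differed between libraries: cluster 0 held 48.6% of the control but 3.43% of the knockout members, cluster 3 held 10.5% and 66.9%, and cluster 4 held 26.7% and 19.4%. With 1 library per genotype a cluster made mostly of 1 library may be that library. The 10 leading genes of cluster 0 held 1 odontoblast marker, Phex, and those of cluster 4 held 1 mural marker, Rgs5. The comparisons below use all cells that met the rule, and clusters are compared only by number.

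Cldn10/Fmod cells made up a larger share of the mesenchyme in the knockout library. They were 210 of 384 mesenchymal cells in the control library, 54.7% with a Clopper-Pearson interval of 49.6 to 59.7%. They were 175 of 235 in the knockout library, 74.5% with an interval of 68.4 to 79.9%. The ratio was 1.36 with an interval of 1.11 to 1.67. Smoc2/Pcp4 cells differed in the other direction, with 78 cells (20.3%) in the control and 10 cells (4.26%) in the knockout library. Col9a1/Angpt4 cells numbered 90 (23.4%) and 41 (17.4%). Shares within the mesenchyme add up to the whole, so the lower share of Smoc2/Pcp4 cells by itself raises that of the members. Over all kept barcodes the members were 9.02% of control and 10.4% of knockout cells, a ratio of 1.15 whose interval of 0.938 to 1.42 includes 1. Smoc2/Pcp4 cells were deeper than members in the control library (median 17545 UMIs) and shallower in the knockout library (5746 UMIs). Among cells with 5000 to 15000 UMIs, an alternative added after seeing the data, the ratio was 1.08 with an interval of 0.864 to 1.35. How cells were lost in dissociation and sorting cannot be told apart from their number in the tissue.

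**Figure D1:**
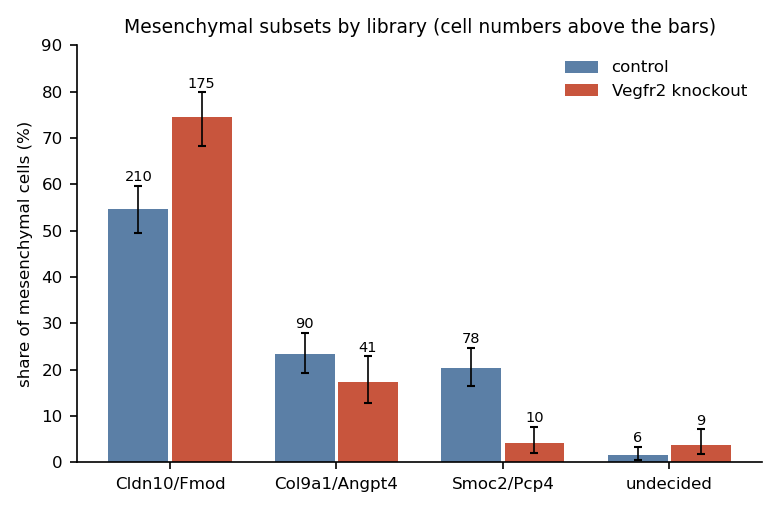
Share of each mesenchymal subset among mesenchymal cells (y axis, percent) in the control and the Vegfr2 knockout library. Bars show the share, error bars its exact 95% binomial interval and numbers above the bars the cells: Cldn10/Fmod cells stand at 54.7% and 74.5%, Smoc2/Pcp4 cells at 20.3% and 4.26%.

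The genes highest in the members against the other mesenchymal subsets included 2 genes of the rule, Cldn10 and Pamr1. Of the 15 genes with the largest smallest ratio over the other subsets in both libraries, 14 are given here: Prelp, Tnfaip2, Cldn10, Trf, Pamr1, Gpx3, Enpp2, Asrgl1, Cxcl12, Abi3bp, Kcnk2, Txnip, Nsg1 and Tnfrsf19. The subsets compared included the undecided mesenchymal cells, won by none of the sums, with only 6 control and 9 knockout cells. These few cells set the smallest ratio for Prelp, Cldn10, Trf, Pamr1, Gpx3, Asrgl1, Kcnk2 and Tnfrsf19. Prelp and Asrgl1 were at 0 CPM in them, so the 1 UMI added to each sum shaped those ratios. Because the rule chose cells on expression, these levels are given as a description. Prelp, a proteoglycan that anchors basement membrane to connective tissue, was at 91.9 and 88.0 CPM in control and knockout members. It was at 7.64 and 7.42 CPM in Col9a1/Angpt4 cells, and at 1.46 and 0 CPM in Smoc2/Pcp4 cells. Mural cells had it too, at 44.4 and 53.9 CPM. Trf, the iron carrier transferrin, was at 1675 and 2465 CPM in members, against 138 and 376 CPM in Col9a1/Angpt4 cells and 74.3 and 77.9 CPM in Smoc2/Pcp4 cells. Enpp2, the enzyme autotaxin that makes lysophosphatidic acid, was at 1034 and 1296 CPM in members and at 232.5 and 485 CPM in Col9a1/Angpt4 cells. Gpx3, a secreted glutathione peroxidase, was at 904 and 713 CPM, against 96.2 and 74.2 CPM in Col9a1/Angpt4 cells. The chemokine Cxcl12 was at 1433 and 1168 CPM, against 360 and 470 CPM in Col9a1/Angpt4 cells, but endothelial cells reached 894 and 1230 CPM.

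Of the 10 lowest genes 9 are given here, Smpd3, Gpha2, Ctgf, Gli1, H19, Pcp4, Cenpe, Nell1 and Mki67, and they included cycling genes, a Hedgehog target and an imprinted RNA. Mki67, present in dividing cells, was at 1.36 and 0 CPM in members, against 204 and 25.9 CPM (2 UMIs) in Smoc2/Pcp4 cells. In Col9a1/Angpt4 cells it was at 26.75 and 0 CPM. Mki67 and Cenpe were at 0 CPM in both knockout members and knockout Col9a1/Angpt4 cells, and Nell1 had 1 UMI in each. The 1 UMI that the ranking adds to each sum therefore set their shared ratio of 0.285 there, which shows no lower level. Smpd3 and Gpha2 were at 0 CPM in knockout members and at 2.47 CPM, 1 UMI, in knockout Col9a1/Angpt4 cells. Their shared ratio of 0.142 there also rests on the added UMI. Gpha2 was at 0 CPM in knockout Smoc2/Pcp4 cells too, so the knockout library does not show a lower level of it against them. Gli1, a target of Hedgehog signalling, was at 2.73 and 0.704 CPM, against 28.7 and 4.95 CPM in Col9a1/Angpt4 cells. Smpd3, a sphingomyelinase of mineralising cells, was at 0.909 and 0 CPM, against 67.8 and 311 CPM in Smoc2/Pcp4 cells.

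**Figure D2:**
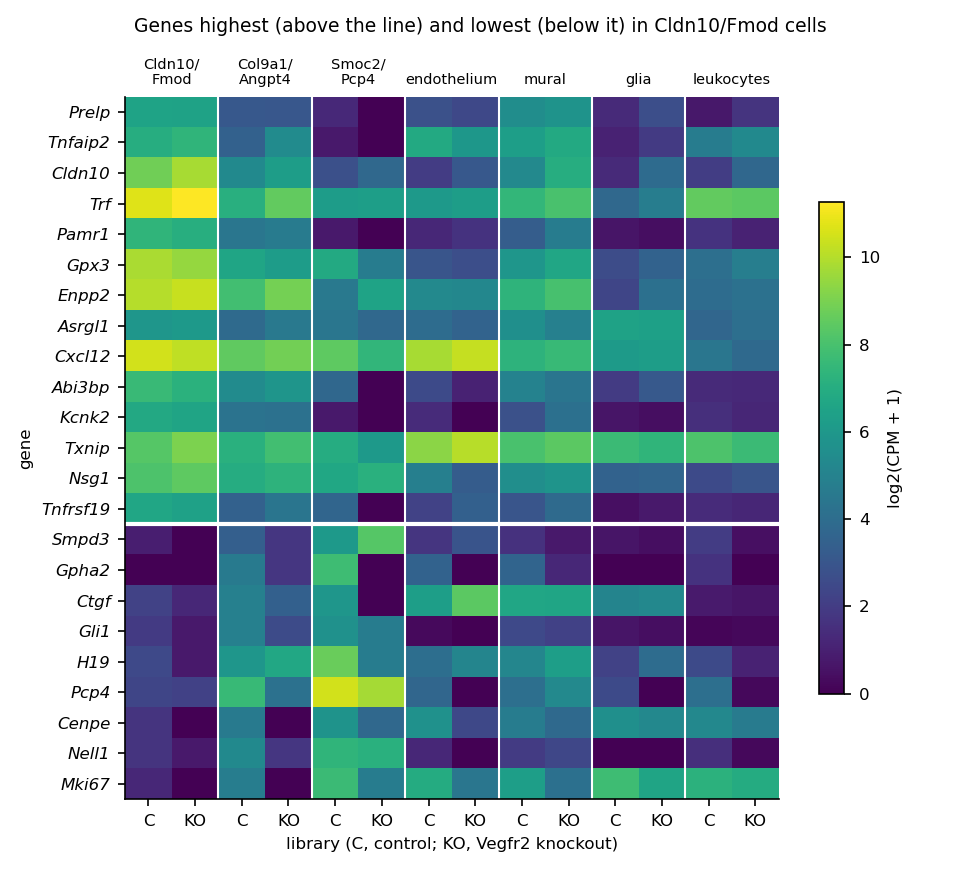
Level of the 14 highest and 9 lowest genes given for Cldn10/Fmod cells (rows) in the mesenchymal subsets and in 4 other kinds of cells (columns, control and knockout library side by side), as log2(CPM + 1) in colour. Trf is brightest in the members at 1675 and 2465 CPM, and Pcp4 is brightest in Smoc2/Pcp4 cells.

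Over 8808 genes with at least 20 UMIs in each library when both subsets were added, 559 (6.35%) were at least 1.5-fold higher in members than in Col9a1/Angpt4 cells in both libraries and 320 (3.63%) lower. Against Smoc2/Pcp4 cells, 1171 of 8169 (14.3%) were higher and 628 (7.69%) lower. Collagens ran low in the members: of 12 collagen chains measured, 5 were lower than in Col9a1/Angpt4 cells in both libraries and 1 higher. Col1a1, a chain of the main fibrillar collagen, was at 2973 and 2916 CPM in members, 5710 and 5537 CPM in Col9a1/Angpt4 cells and 5927 and 8604 CPM in Smoc2/Pcp4 cells. Col12a1, a fibril-associated collagen, was at 141 and 177.5 CPM, against 590.4 and 532 CPM in Col9a1/Angpt4 cells. The other chain of type I collagen, Col1a2, was the exception, at 2096 and 2225 CPM against 927 and 1336 CPM.

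Igfbp5 and Chrdl1 were higher in the members than in both other subsets. Igfbp5, which binds insulin-like growth factors, was at 3627 and 4065 CPM in members, 1006 and 2343 CPM in Col9a1/Angpt4 cells and 189 and 38.9 CPM in Smoc2/Pcp4 cells. Chrdl1, an antagonist of bone morphogenetic proteins, was at 128 and 180 CPM, against 40.1 and 84.1 CPM and 2.19 and 13.0 CPM. The 10 knockout Smoc2/Pcp4 cells held 77060 UMIs in sum, so the values of 38.9 and 13.0 CPM there rest on very few UMIs. Of 13 Wnt pathway genes measured, 6 were lower in members than in Smoc2/Pcp4 cells in both libraries (7.69% of all genes) and 0 higher (14.3%). They included the Wnt inhibitors Wif1, Sfrp1 and Frzb and the Wnt potentiator Rspo2, which was at 10.0 and 9.86 CPM against 112 and 156 CPM. Of 8 cell cycle genes measured, 6 were lower than in Smoc2/Pcp4 cells in both libraries (7.69% of all genes) and 0 higher (14.3%). Immediate early genes, transcription factors induced within minutes by growth factors and also by tissue dissociation, were mostly higher than in Smoc2/Pcp4 cells. Of 21 measured, 20 were higher in both libraries (14.3% of all genes) and 0 lower (7.69%). Fos was at 1013 and 944 CPM in members and at 112 and 130 CPM in Smoc2/Pcp4 cells. Against Col9a1/Angpt4 cells 2 of 21, Fosl2 and Egr1, were higher in both libraries, where 6.35% of all genes were higher. The median mitochondrial share was 6.34% and 7.43% in members against 4.43% and 6.54% in Smoc2/Pcp4 cells, and its part in this difference was not tested.

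Between genotypes, the members of the knockout library had higher levels of glycolytic and hypoxia response genes. In the members 10586 genes reached 20 UMIs when the libraries were added, of which 1005 (9.49%) were at least 1.5-fold higher in the knockout and 1207 (11.4%) at least 1.5-fold lower. The median log2 ratio over all of them was -0.06. Of the 28 genes in the hypoxia and glycolysis list 25 were measured, and 20 of these were at least 1.5-fold higher, 0 lower, with a median log2 ratio of 1.02. The list was chosen with earlier results of these libraries known, so its direction is not independent evidence.

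Along the pathway, glucose entry and the first step were mixed, and all but 1 of the later enzymes were at least 1.5-fold higher. Among these Gpi1 passed narrowly, with a ratio of 1.52. It was 1.46 in Xist-positive cells, 1.49 with each cell counted equally and 1.46 without the cell with most of its UMIs. With a mitochondrial limit of 5% it was 2.49. The glucose transporter Slc2a1 was at 9.09 CPM in control and 8.45 CPM in knockout members, and Hk1, a hexokinase, at 20.01 and 19.01 CPM. The ratio of Hk1 was 2.37 with a mitochondrial limit of 5%, which left 53 control and 14 knockout members. Hk2, the inducible hexokinase, was at 24.6 and 53.5 CPM, a ratio of 2.18 (interval 1.52 to 3.15). Pfkl, a phosphofructokinase, was at 54.6 and 139 CPM, a ratio of 2.56 (interval 2.03 to 3.23). Aldoa, which splits fructose bisphosphate, was at 188 and 451 CPM, a ratio of 2.4 (interval 2.12 to 2.72). Tpi1 was at 257 and 613 CPM, Gapdh at 427 and 961 CPM, Pgk1 at 54.1 and 119 CPM, Eno1 at 152 and 327 CPM and Pkm at 181 and 361 CPM. Their ratios ran from 1.99 for Pkm to 2.38 for Tpi1. Pgam1 was the exception among the later enzymes, at 167 and 201 CPM, a ratio of 1.20. Ldha, which makes lactate from pyruvate, was at 250.1 and 652 CPM, a ratio of 2.61 (interval 2.34 to 2.90). Slc16a3, which exports lactate, was at 3.64 and 15.5 CPM, a ratio of 4.26 (interval 1.83 to 11.1).

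Targets of hypoxia-inducible factors outside glycolysis were also higher. Ankrd37 was at 14.1 and 77.5 CPM, a ratio of 5.50 (interval 3.66 to 8.47), seen in 21 control and 62 knockout cells. Its ratio was 2.18 in Y-positive cells. P4ha1, a collagen prolyl hydroxylase, was at 48.7 and 116 CPM, a ratio of 2.39. Bnip3, a mitophagy receptor, was at 52.8 and 106 CPM, a ratio of 2.003 that was 1.14 in Y-positive cells. Egln1, the oxygen sensor that marks these factors for decay, was at 57.8 and 95.1 CPM, a ratio of 1.65 that was 1.34 in Y-positive cells. Pdk1, which keeps pyruvate out of mitochondria, was at 25.01 and 50.7 CPM, but its ratio of 2.03 became 0.773 when each cell was thinned to 2000 UMIs. Vegfa, the ligand of VEGFR2 and a member of the angiogenic list, was at 110 and 237 CPM, a ratio of 2.16 (interval 1.82 to 2.56). P4ha2 showed little difference, at 170 and 180.3 CPM.

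**Figure D3:**
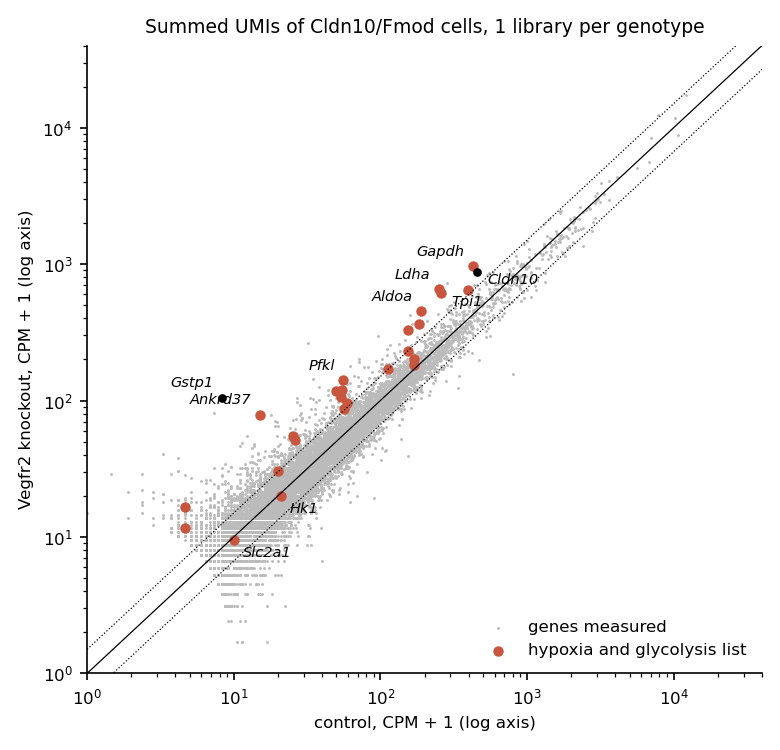
Level of each of 10586 genes in control (x axis) and knockout (y axis) Cldn10/Fmod cells, as CPM + 1 on log axes. The solid line marks equality and dotted lines 1.5-fold. Of the hypoxia and glycolysis list (red), 20 of 25 genes lie at or above the upper dotted line, Hk1 and Slc2a1 lie near the solid line, and Cldn10 and Gstp1 are marked in black.

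Hypoxia-inducible factors bind DNA at a core of A or G followed by CGTG. Only the form ACGTG was searched for here, so GCGTG is neither marked nor counted. The promoters of 4 members of the list, each with at least 2 matches over both strands, are shown because these genes were higher together. Each sequence is the 250 bases before the RefSeq start in GRCm38.p6, 5′ to 3′ on the gene's strand, with ACGTG or its reverse complement CACGT in capitals. The windows are chr7:46845554-46845803 (plus) for Ldha, chrX:106186850-106187099 (plus) for Pgk1, chr7:138909507-138909756 (minus) for Bnip3 and chr6:82774455-82774704 (minus) for Hk2.
Ldha: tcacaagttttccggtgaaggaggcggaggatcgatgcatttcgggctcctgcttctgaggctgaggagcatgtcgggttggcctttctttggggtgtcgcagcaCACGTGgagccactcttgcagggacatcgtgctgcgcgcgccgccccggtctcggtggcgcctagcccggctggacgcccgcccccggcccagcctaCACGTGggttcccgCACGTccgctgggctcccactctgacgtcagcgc
Pgk1: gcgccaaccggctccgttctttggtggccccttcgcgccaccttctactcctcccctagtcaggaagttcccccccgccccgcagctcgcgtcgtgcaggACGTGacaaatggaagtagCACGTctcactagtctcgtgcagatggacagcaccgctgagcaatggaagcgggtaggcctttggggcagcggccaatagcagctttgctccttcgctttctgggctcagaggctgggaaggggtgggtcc
Bnip3: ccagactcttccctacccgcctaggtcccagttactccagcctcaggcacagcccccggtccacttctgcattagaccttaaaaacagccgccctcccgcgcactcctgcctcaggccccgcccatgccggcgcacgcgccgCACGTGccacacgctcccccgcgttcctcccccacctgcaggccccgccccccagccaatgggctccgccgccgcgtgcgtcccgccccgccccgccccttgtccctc
Hk2: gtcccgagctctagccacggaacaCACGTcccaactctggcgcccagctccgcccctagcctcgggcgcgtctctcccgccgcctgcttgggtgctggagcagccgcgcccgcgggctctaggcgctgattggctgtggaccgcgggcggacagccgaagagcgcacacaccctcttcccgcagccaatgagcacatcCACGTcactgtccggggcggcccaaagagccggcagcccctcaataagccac
Ldha held 5 matches over both strands, and the other 3 genes 2 each, which in Bnip3 lie at 1 place. Where both strands match at one place the letters read CACGTG, which is also the E-box bound by other factors, as in Ldha and Bnip3. Of all 32851 RefSeq windows of this length 16.6% held the letters, against 19 of 36 windows (52.8%) of the 27 list genes that had one. By gene, 18.5% of all genes held a match, against 17 of the 27 list genes (63.0%) and 11 of the 19 that were at least 1.5-fold higher (57.9%). The share among the higher genes was not above that of the whole list. The list was chosen for hypoxia response and glycolysis, so its higher share than over all genes is not independent evidence. Gapdh, Tpi1 and Pfkl held no match of the form searched for, and the other form was not examined. A match is a run of letters and not a measured binding site.

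The higher level was spread over most members. UMIs of the 28 list genes came to 29.0 per 10000 UMIs in control and 57.2 per 10000 in knockout members. Per cell the median was 28.01 in the control, with quartiles of 22.1 and 35, and 50.1 in the knockout, with quartiles of 35.1 and 70.4. The upper quartile of the control thus met the lower quartile of the knockout. After thinning each cell to 2000 UMIs, medians were 5 and 10 UMIs. The ratio of the summed level was 1.57 among cells with 1000 to 5000 UMIs (16 and 19 cells), 2.13 from 5000 to 10000 UMIs and 1.94 from 10000 to 20000 UMIs. Within cluster 3, members stood at 32.8 and 58.5 per 10000 UMIs, within cluster 4 at 25.3 and 50.6, and within cluster 0, with 6 knockout members, at 31.1 and 52.9. Members with a mitochondrial share over 10%, which the limit left out, stood at 23.8 (133 control cells) and 46.1 per 10000 (78 knockout cells).

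**Figure D4:**
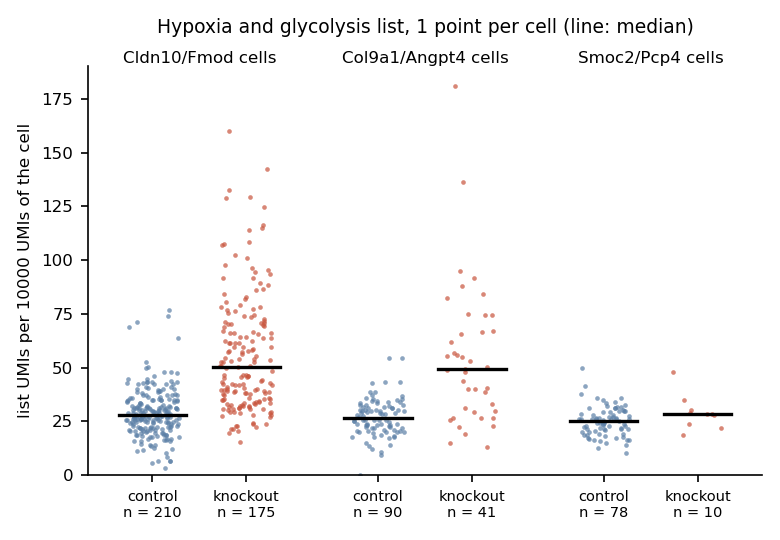
UMIs of the hypoxia and glycolysis list per 10000 UMIs of a cell (y axis) in each mesenchymal subset and library. Each point is 1 cell and lines are medians. In Cldn10/Fmod cells the medians are 28.01 and 50.1, and Smoc2/Pcp4 cells have only 10 knockout cells.

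The list was higher in other kinds of cells too. Of its measured genes, 18 of 24 were at least 1.5-fold higher in Col9a1/Angpt4 cells (14.0% of all genes), 17 of 28 in leukocytes (8.86%), 12 of 26 in mural cells (11.2%), 12 of 25 in endothelial cells (11.8%) and 6 of 24 in glia (10.9%). At least 1.5-fold lower were 0 in Col9a1/Angpt4 cells (17.9% of all genes), 1 in leukocytes (10.8%), 0 in mural cells (10.7%), 0 in endothelial cells (17.0%) and 1 in glia (9.31%). In Smoc2/Pcp4 cells, with 10 knockout cells, 4 of 19 were higher and 2 lower, where 19.6% of all genes were higher and 31.2% lower. In Col9a1/Angpt4 cells it stood at 27.7 and 63.5 per 10000 UMIs, in leukocytes at 28.1 and 50.8, in mural cells at 27.2 and 35.7, in glia at 25.5 and 34.5 and in endothelial cells at 25.1 and 34.1. The median log2 ratio of its genes was 0.96 in Col9a1/Angpt4 cells, 0.72 in leukocytes, 0.55 in endothelial, 0.54 in mural and 0.31 in glial cells. Ldha had a ratio of 2.61 in the members and 3.61 in Col9a1/Angpt4 cells, against 1.11 in endothelial and 1.06 in glial cells. Whether these ratios differ between cell types was not tested.

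Subunits of the respiratory chain, which use oxygen in mitochondria, had 0 of 24 genes past 1.5-fold in either direction, with a median log2 ratio of -0.25. The highest was Uqcrh at 486 and 572.5 CPM, and the lowest Atp5k at 259 and 177.5 CPM. Of 19 genes for protein folding and stress in the endoplasmic reticulum, 6 were at least 1.5-fold lower (11.4% of all genes) and 1 higher (9.49%). Their median was -0.44. The chaperone Calr was at 675 and 412 CPM, a ratio of 0.611 (interval 0.554 to 0.672) that was 0.793 in Y-positive cells, and the disulfide isomerase Pdia4 at 187 and 103 CPM, a ratio of 0.550. The exception was Ddit3, a stress-induced transcription factor, at 76.8 and 175 CPM, a ratio of 2.27 (interval 1.86 to 2.78). Its ratio was 1.20 in Y-positive cells.

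Most structural matrix genes were level between the libraries, while certain small proteoglycans were lower in the knockout. Of 15 collagens, 1 was at least 1.5-fold higher (9.49% of all genes) and 1 lower (11.4%), with a median log2 ratio of 0.00. Col1a1 was at 2973 and 2916 CPM and Col3a1 at 4104 and 4358 CPM. Col14a1, a fibril-associated collagen, was the lower one, at 39.1 and 5.63 CPM, a ratio of 0.144 (interval 0.0603 to 0.297). Of 7 small leucine-rich proteoglycans measured, 3 were at least 1.5-fold lower (11.4% of all genes) and 1 higher (9.49%). The lower ones were Omd at 340.1 and 151 CPM, Ogn at 542.5 and 338 CPM and Aspn at 50.9 and 19.7 CPM. The ratio of Ogn, 0.623, was 0.796 in Y-positive cells, and 1 cell held 33% of the Aspn UMIs. Omd had a ratio of 0.445 (interval 0.381 to 0.519) and was lower also in Col9a1/Angpt4 cells, with a ratio of 0.186. Decorin, from Dcn, was higher at 1405 and 2123 CPM, a ratio of 1.51 that was 1.25 with a mitochondrial limit of 5%. Lum was level at 2165 and 2162 CPM. Dcn and Lum are among the 7 genes that called a cell mesenchymal, so their levels are a description. Of 17 proteases and inhibitors 3 were higher and 3 lower, against 9.49% and 11.4% of all genes. Timp3, an inhibitor of metalloproteinases, was at 998 and 1464 CPM.

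Of 10 axon guidance and neurotrophic genes measured, 5 were at least 1.5-fold lower (11.4% of all genes) and 0 higher (9.49%), with a median log2 ratio of -0.57. Ptn, the heparin-binding growth factor pleiotrophin, was at 470 and 198 CPM, a ratio of 0.421 (interval 0.368 to 0.481). One cell held 17.5% of its UMIs, and without that cell the ratio was 0.507. With a mitochondrial limit of 5%, which left 53 control and 14 knockout members, it was 0.868. Ntng1, a membrane-anchored netrin, was at 226 and 132 CPM, and the neurotrophin Ntf3 at 44.6 and 25.4 CPM. The ratio of Ntng1, 0.586, was 0.749 after thinning. Of 9 genes of the IGF pathway 2 were higher and 2 lower, against 9.49% and 11.4% of all genes. The lower ones were both ligands. Igf1 was at 137 and 85.9 CPM, with a ratio of 0.628 that was 0.693 in Xist-positive cells. Igf2 was at 60.9 and 16.9 CPM, and the receptor Igf1r was at 259 and 346.5 CPM. Among 17 Wnt genes 2 were higher and 3 lower, against 9.49% and 11.4% of all genes. Their median log2 ratio of -0.28 was 0.03 in Xist-positive cells. Wif1 was at 366 and 232 CPM, a ratio of 0.636 that was 0.849 after thinning, and Wnt5a, a ligand of the non-canonical branch, at 363 and 245 CPM, a ratio of 0.675 that did not pass 1.5-fold. Of 13 angiogenic ligands 4 were higher and 1 lower, against 9.49% and 11.4% of all genes, with a median of -0.08. Besides Vegfa and Adm, the higher ones were Angptl4 at 19.1 and 37.3 CPM and Angptl1 at 46.8 and 77.5 CPM. The ratio of Adm was 1.55, and 1.05 with a mitochondrial limit of 5%.

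Of 23 transcription factors of dental mesenchyme measured, 2 were at least 1.5-fold higher and 2 lower, near the shares of all genes (9.49% and 11.4%). Msx1, a homeobox factor required for tooth formation, was at 435 and 697 CPM, a ratio of 1.604 (interval 1.47 to 1.75) that was 1.28 after thinning, and its relative Msx2 at 428 and 303.5 CPM. Among pulp mesenchyme markers Rab3b was at 80.5 and 28.9 CPM and Nnat at 30.9 and 9.16 CPM, while Enpp6 was at 275 and 298 CPM. Nes, the intermediate filament nestin, was at 300.1 and 178 CPM, a ratio of 0.594 that was 0.891 with a mitochondrial limit of 5%. In the cartilage list, Sox9 was at 834 and 1139 CPM and the matrilin Matn4 at 536 and 828 CPM, a ratio of 1.54 that was 1.00 with a mitochondrial limit of 5%. Slc20a1, a phosphate transporter, was at 18.2 and 64.1 CPM, a ratio of 3.52 (interval 2.404 to 5.25). Among cell cycle brakes, Cdkn1a was at 22.3 and 51.4 CPM.

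Of 22 immediate early genes measured, 5 were at least 1.5-fold higher (9.49% of all genes) and 1 lower (11.4%), with a median log2 ratio of 0.26. The median was -0.66 in Y-positive cells, where 9 of 18 were lower (13.7% of all genes there), and -0.26 with a mitochondrial limit of 5%. Egr3 was at 37.3 and 101 CPM, a ratio of 2.70 that was 1.34 under that limit, and Egr2 at 7.28 and 27.5 CPM. Fos was at 1013 and 944 CPM and Jun at 933 and 1002 CPM. Zfp36, which degrades inflammatory transcripts, was the lower one at 108 and 42.3 CPM, a ratio of 0.392 that was 0.807 after thinning. In the same list 16 of 20 were higher in Col9a1/Angpt4 cells and 21 of 22 in mural cells. The percentages of all genes at least 1.5-fold higher there were 14.0% and 11.2%.

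**Figure D5:**
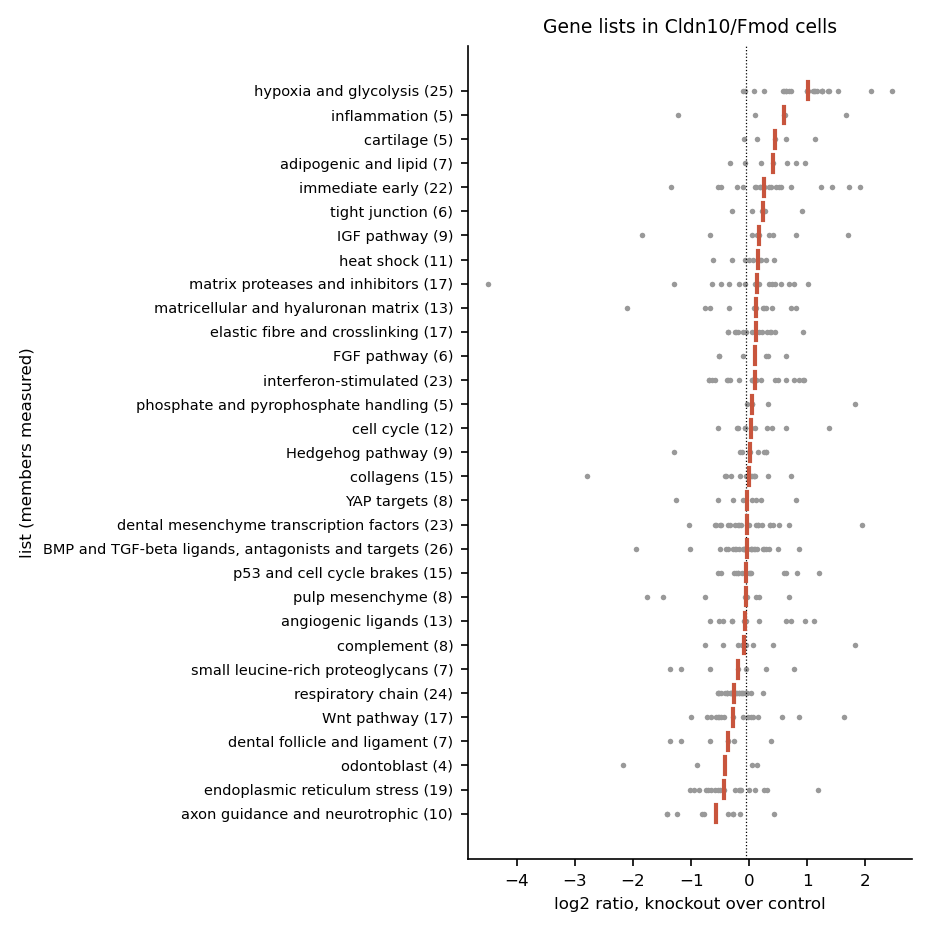
Log2 ratio of knockout over control in Cldn10/Fmod cells (x axis) for the measured members of each gene list (grey points) with the list median (red bar). The dotted line is the median of all genes measured, -0.06. Lists with at least 3 measured members are plotted, without markers of other cells. Among them hypoxia and glycolysis has the highest median at 1.02 and axon guidance and neurotrophic the lowest at -0.57.

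Of the 15 genes with the highest ratio by the rule for named genes, 14 are given here: Gstp1, Gm42743, Ppm1n, Gm32389, Gm10076, Lck, B230344G16Rik, Gsto2, Lsmem1, Caprin2, Ankrd37, Gm10282, 4930444M15Rik and Gm10138. Gstp1, a glutathione transferase on chromosome 19 (4035407 to 4037985, minus strand), was at 7.28 and 103.5 CPM, a ratio of 14.2 (interval 8.48 to 25.5). After thinning its ratio was 4.25. It had ratios from 11.9 to 18.3 in the 6 other kinds of cells. The related copies Gstp2 and Gstp3 had 0 and 2 UMIs and 2 and 1 UMIs in the members. The long noncoding RNA Gm10076 was at 30.9 and 262 CPM, with a ratio of 8.47 in members and of 5.28 to 10.5 elsewhere. For genes that differ by like amounts in every kind of cell, genotype and Cell Ranger version cannot be told apart. Caprin2, an RNA-binding protein, differed by unlike amounts: it was at 40.5 and 189 CPM in members, a ratio of 4.68. The ratio was 9.52 in Col9a1/Angpt4 cells, 3.11 in mural cells, 1.38 in leukocytes and 1.13 in glia. Smoc2/Pcp4 cells had 1.27 (interval 0.0301 to 8.36). In endothelial cells Caprin2 was at 4.58 and 2.19 CPM, a ratio of 0.478 whose interval of 0.0541 to 1.97 includes 1. Its ratio in Y-positive members was 1.21. Lck, a kinase of T cells, was seen in 2 control and 22 knockout members, and its ratio of 22.5 was 8.66 without a mitochondrial limit.

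The 15 genes with the lowest ratio were AY036118, Fras1, Tsix, Slc12a1, Khdrbs3, Gm26778, Igf2, Klhl33, Rab27b, Ptn, Chkb, Phpt1, Sirt5, Rab3b and Omd. AY036118, a noncoding RNA on chromosome 17 (39847113 to 39848035, minus strand), was at 802 and 155 CPM, a ratio of 0.193 that was 0.366 after thinning, and had ratios from 0.137 to 0.501 in the other kinds of cells. Phpt1, a phosphohistidine phosphatase, was at 137 and 51.4 CPM, a ratio of 0.376, with 0.405 to 0.857 elsewhere. Tsix lies antisense to Xist, and whether reads of this pair were assigned to the right gene was not tested. Tsix was at 153 and 38.0 CPM, a ratio of 0.249, with 0.108 to 0.237 in the other kinds of cells. As Tsix was lower in every kind of cell, genotype and Cell Ranger version cannot be told apart for it. Xist was at 2046 and 1462 CPM. Cldn10 itself had a ratio of 1.93 (interval 1.78 to 2.10) in the members. It also stood higher in knockout cells of other kinds, at 1.52 and 14.2 CPM in glia and 3.18 and 12.5 CPM in leukocytes. With a mitochondrial limit of 5% its ratio in the members was 1.07.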

How the data were processed

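The labels give 1 control and 1 Vegfr2 knockout library of sorted pulp cells. The deposited matrices hold raw UMI counts per gene and barcode, which the authors made with Cell Ranger 5.0.0 (control) and 6.0.1 (knockout) per the file headers. For both libraries, version 6.0.1 and mm10 stand in the submitters' processing notes. Cells were chosen by the rule given in the opening. The members, the gene lists and the comparisons were chosen with earlier results of these data known.

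UMIs were summed per library and cell set and scaled to CPM. Ratios carry exact conditional 95% Poisson intervals, and shares Clopper-Pearson intervals. A gene counted as measured from a summed 20 UMIs, and 1.5-fold was used as the limit of a call. Other cells needed their own exclusion gene, none of the other 3 and at least 3 markers. Genes were named for genotype by this rule: at least 30 UMIs, at least 10 cells in the library where higher, at least 25% of the CPM in other cells, then the 15 highest and 15 lowest by the interval bound nearer 1. No mitochondrial, ribosomal protein, haemoglobin, Y-linked or Xist gene was eligible. For subsets, the 15 highest and 10 lowest by ratio over the other mesenchymal cells were taken, with 1 UMI added to each sum, and the lowest needed at least 100 UMIs in those cells. List members and rule genes could be named as well. 3 genes that the rules chose are not reported here. Clusters came from 2000 variable genes, 20 principal components and the Leiden algorithm at resolution 0.6. Scrublet marked 0.598% of kept barcodes, with an expected rate of 0.8% per 1000 cells, and no doublets were removed. Ratio and interval code was tested on simulated counts. Tools were Python 3.11.15, scanpy 1.11.5, scipy 1.17.1 and numpy 2.4.6. Gene positions come from GENCODE for GRCm38, and promoters from RefSeq (GRCm38.p6). Alternatives were other limits on mitochondrial share, UMIs and rule sums, thinning, doublet removal, each sex, other scalings and other UMI minimums. 2 more, a depth band and no mitochondrial limit, were chosen after seeing the data.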

Additional observations from a re-analysis of the deposited data

Results flagged for a closer look

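The list of immediate early genes lay on opposite sides of 0 in the 2 sexes. Its median log2 ratio of knockout over control was -0.66 in Y-positive Cldn10/Fmod cells (28 control and 30 knockout cells, 18 genes measured) and 0.45 in Xist-positive cells (167 and 129 cells, 22 genes measured). The difference was not tested, and each sex of a genotype comes from the same single library.

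The mitochondrial limit left out cells that otherwise met the rule. There were 133 such control barcodes, with a median mitochondrial share of 12.9%, and 78 knockout barcodes, with a median of 12.8%. They carried Cldn10 at 285 and 805 CPM and Fmod at 1068 and 659 CPM. They were 69.6% and 81.2% of the mesenchymal cells over that limit.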

How the results depend on the processing

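The ratio of the share of Cldn10/Fmod cells in the mesenchyme was 1.36. It was 1.07 in Y-positive cells and 1.08 in cells with 5000 to 15000 UMIs. It ran from 1.15 to 1.497 under the other 14 of 16 alternatives, above 1 in each. The interval included 1 in Y-positive cells, in that depth band, over all kept barcodes and with a mitochondrial limit of 5% (0.60 to 2.15). Cldn10, a gene of the rule, was itself higher in knockout members. With the rule without Cldn10 the ratio was 1.28 (interval 1.035 to 1.58), and without Fmod 1.26 (interval 1.005 to 1.57). The median log2 ratio of the hypoxia and glycolysis list was 1.02. It was 1.15 with a mitochondrial limit of 5%, 1.13 after thinning, 0.89 in Xist-positive and 1.17 in Y-positive cells, 1.08 when scaled by the median gene ratio and also 1.08 in the depth band, and it passed 1.5-fold under all 13 alternatives. The count of genes at least 1.5-fold higher was 1005 and became 634 after thinning, 537 with at least 50 UMIs and 4364 without a minimum. The genes measured were 10586, 5321, 8132 and 17123, so the share was 9.49%, 11.9%, 6.6% and 25.5%. The count of lower genes was 1207 and became 632 of 4598 (13.7%) in Y-positive cells, 702 with at least 50 UMIs and 3381 without a minimum.

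The median of the inflammation list, 0.60 over 5 genes, was -0.58 with a mitochondrial limit of 5% and -0.18 in Y-positive cells. Ratios on the other side of 1 under the 5% limit were 0.953 for Pgam1 and 0.784 for Gadd45g. After thinning they were 0.773 for Pdk1 and 0.990 for Bmp4, and in Y-positive cells 1.23 for Scara3, 1.03 for Cxcl14 and 0.749 for Gadd45g. Against the other subsets, the smallest ratio was 0.854 for Asrgl1 and 0.907 for Kcnk2 after thinning. The largest ratio was 1.39 for Gpha2, Ctgf, Gli1, Pcp4, Cenpe and Mki67 under the 5% limit and 1.42 for Smpd3 and H19 in Y-positive cells. The values 1.39 and 1.42 are each shared by several genes, as the 1 UMI added to each sum gives where both sums hold equal counts. They then reflect the total UMIs of the cell sets compared and show no higher level of the gene in members. The causes of the other moves were not tested. The 5% limit left 53 control and 14 knockout members. No paired analysis was possible because each genotype has 1 library and no test was made. Depth limits single genes: a gene with 20 UMIs over both libraries has a wide interval, and intervals hold no variation between animals.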
